A study of Mus musculus with 11 samples.

Results

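The enzymes that burn fatty acids inside mitochondria were followed here as 1 group of 32 genes, out of 53465 genes counted in the quadriceps of aged mice. The members were chosen by function, from carnitine uptake and the carnitine shuttle through the cycle of beta-oxidation to electron transfer, together with acyl-CoA thioesterases, the control of malonyl-CoA, 1 ketone body enzyme and 2 uncoupling proteins. All 32 were found in the count table by symbol, and all 32 had enough reads to be tested. The animals carried the strain label C57L/6JRj and were given either DMSO, the solvent control, or myriocin, an inhibitor of serine palmitoyltransferase, with which sphingolipid synthesis starts. Dosing began at 18 months of age and went on for 10 weeks in both groups, which differed only in the compound as far as the labels say. There were 5 DMSO and 6 myriocin libraries, named below by group and replicate. Neither dose nor sex is labelled, nor whether libraries stem from separate mice, so the p-values here measure how these samples scatter, which may be technical. In a piece of muscle, fewer fibres of a type and less RNA per fibre cannot be told apart.

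Long-chain fatty acids reach the mitochondrial matrix as carnitine esters: CPT1 makes the ester on the outer membrane, a carrier exchanges it across the inner membrane, and CPT2 turns it back into acyl-CoA. Each turn of beta-oxidation then removes an acetyl unit by dehydrogenation, hydration, a further dehydrogenation and thiolysis, and the electrons of the first dehydrogenation pass through the electron transfer flavoprotein to the respiratory chain. Malonyl-CoA inhibits CPT1, so its synthesis and breakdown set the rate of entry, and in muscle the pathway is most active in oxidative fibres and is induced through PPAR and ERR nuclear receptors.

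The labelled tissue matched its markers: 9 skeletal muscle fibre genes together held 137000 to 156800 CPM (the usual scaling of a gene's reads by all reads counted to genes in a library) in the DMSO libraries and 149900 to 160600 in the myriocin libraries. Libraries held 22241131 to 23163721 gene reads, and 3 reads, the floor for a level, corresponded to 0.130 to 0.135 CPM. The lowest member value in any library, 1.87 CPM for Cpt1b, lay above that floor. Liver transcripts were present in 3 libraries (DMSO replicates 4 and 5, Myriocin replicate 4), where Alb, serum albumin, read 85.6, 63.9 and 73.8 CPM. It was at 4.44 to 20.6 CPM elsewhere. DMSO replicates 2 and 5 and Myriocin replicate 4 lay farthest from the centre on the first 2 principal components of log2 CPM.

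Start sites of the members are shown first, since pairs of members are neighbours on a chromosome. RefSeq windows on GRCm38.p6, from 250 bases before the start to 50 after it, were matched by symbol for 25 of the 32 members. Hadha and Hadhb, which encode the alpha and beta subunits of the trifunctional protein, lie head to head on chromosome 5 with 272 bases between their RefSeq starts, Hadha on the minus strand and Hadhb on the plus strand. The stretch between the annotated genes, and the bases before Cpt2, whose groups did not overlap, Ucp3, with the widest spread between libraries, and Acadm, the medium-chain dehydrogenase, are printed 5′ to 3′, the motif in capitals. Capitals mark GGGCGG in the upper pair, and AGGTCA, the hexamer to which many nuclear receptors bind, in the lower pair, where TGACCT is the same hexamer read on the other strand. Coordinates are chr5:30155163-30155247 (plus strand), chr4:107923611-107923839 (minus), chr7:100472741-100472989 (plus) and chr3:153944644-153944893 (minus).
Hadha and Hadhb: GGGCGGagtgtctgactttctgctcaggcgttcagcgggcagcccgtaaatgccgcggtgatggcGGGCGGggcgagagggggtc
Cpt2: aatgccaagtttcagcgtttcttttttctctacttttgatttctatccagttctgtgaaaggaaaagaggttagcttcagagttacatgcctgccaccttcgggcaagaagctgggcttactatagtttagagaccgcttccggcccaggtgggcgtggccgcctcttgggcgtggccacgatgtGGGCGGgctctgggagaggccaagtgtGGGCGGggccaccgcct
Ucp3: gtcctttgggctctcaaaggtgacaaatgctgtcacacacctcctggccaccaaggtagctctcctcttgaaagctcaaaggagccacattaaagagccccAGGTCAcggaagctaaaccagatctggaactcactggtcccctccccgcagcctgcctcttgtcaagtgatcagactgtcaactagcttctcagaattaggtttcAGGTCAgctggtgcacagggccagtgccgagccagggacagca
Acadm: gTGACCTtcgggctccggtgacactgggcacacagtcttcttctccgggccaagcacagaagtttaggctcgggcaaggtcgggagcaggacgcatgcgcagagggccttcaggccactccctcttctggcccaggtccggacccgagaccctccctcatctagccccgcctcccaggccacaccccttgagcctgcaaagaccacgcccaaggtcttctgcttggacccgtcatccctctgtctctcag

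Of the 25 member windows, 17 held GGGCGG on either strand (68.0%, against 35.7% of the 32851 RefSeq windows of the same length). The windows of Hadha and Hadhb overlap, and the only GGGCGG in that of Hadha is also counted in that of Hadhb. AGGTCA was found in 6 member windows (24.0%, against 16.3%), those of Acacb, Acadm, Acadvl, Cpt1a, Echs1 and Ucp3. The direct repeat of that hexamer with any 1 base between, searched on both strands, was found in 0 member windows and in 0.0396% of all windows. It contains AGGTCA, and a letter match is a description of these windows only. TATAAA was found in 1 member window, that of Acacb (4.0%, against 13.6%), and the median GC content was 60.3% for the members against 52.7% for all windows.

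Levels between members were compared as CPM per kilobase of the principal transcript, averaged over the 11 libraries. Ech1, a dienoyl-CoA isomerase, stood highest at 140.2 CPM per kilobase, followed by Etfa (137), Acadm (129.6), Acadl (125) and Hadhb (124). Crat, Hadha, Ucp3, Eci1 and Acaa2 came next with 117, 112, 108, 103 and 95.2 CPM per kilobase. The lowest were Acad9 (6.03), Cpt1a (4.02), Slc22a5 (3.75) and Acad10 (1.24), leaving aside Cpt1b, whose count is uncertain. Neighbours at the top of this order differed by less than the range of each over the libraries. With the length of all exons joined in place of the principal transcript, Acadl ranked first and Ech1 the sixth, so the order near the top rests on the length used.

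**Figure D1:**
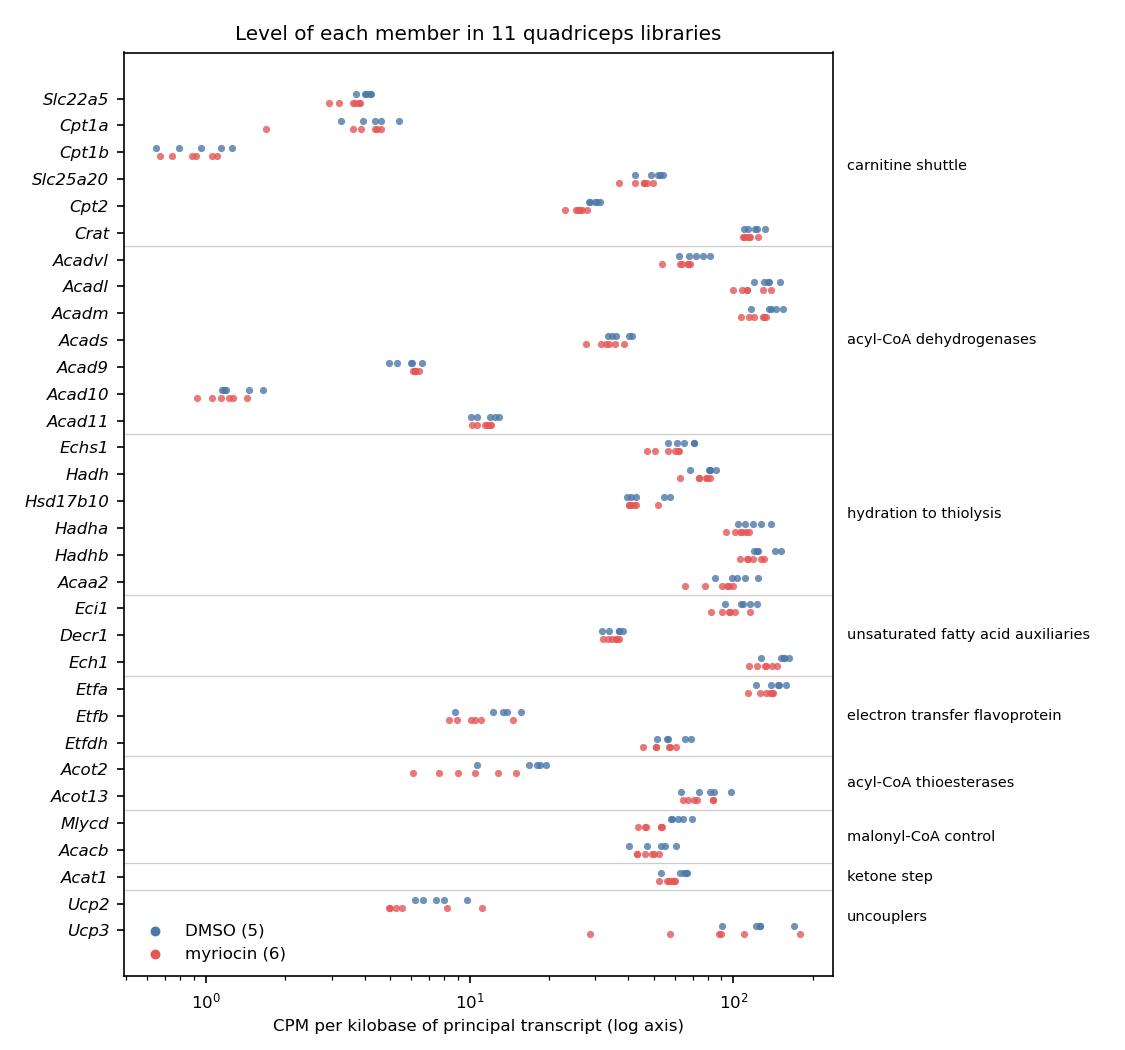
Level of each of the 32 members in the 11 libraries, as CPM per kilobase of the principal transcript on a log axis, DMSO in blue and myriocin in red, with the members in the order of the pathway. Red points lie to the left of or among the blue points for most members, and the mean levels run from 140.2 (Ech1) down to 1.24 (Acad10), leaving aside Cpt1b, whose count is uncertain.

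Some of these levels depend on how reads were assigned. In the GENCODE M21 annotation, 81.4% of the exon bases of Cpt1b, the muscle form of CPT1, also belong to Gm44502, a readthrough gene on the same strand, and 78.6% of the 50-base stretches in Cpt1b transcripts occur there too. HTSeq, the authors' counter, sets aside reads that fall in more than 1 gene by default, and which annotation release they used is not stated. No count value was found for Gm44502, unlike for Gm45233 and Dvl2 below. Whether the overlap lowered the count of Cpt1b was not tested. With this uncertainty, the low level of Cpt1b (1.87 to 3.65 CPM) is not read here as the level of its transcript. Likewise 53.0% of the exon bases of Etfb, the beta subunit of the flavoprotein, overlap Gm45233, a gene on the same strand with 0 counts in each library. Exons of Acadvl overlap those of Dvl2 on the opposite strand over 42.9% of their bases, and the strand setting of the counting is not given in the sources used here. Near-identical copies share 50-base stretches with 4 further members: Slc22a5 (26.1%, with Slc22a21), Acot2 (24.5%, with Acot1), Hadhb (18.1%, with Gm13910) and Acad10 (16.8%, with Acad12).

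Across the treatment comparison, 30 of the 32 members were lower with myriocin and 2 were higher, most of them by little: the median log2 fold change (myriocin over DMSO) was -0.13, against -0.01 for all 14117 genes tested. No member passed the threshold of 0.05 on the adjusted p of edgeR's quasi-likelihood test with Benjamini-Hochberg adjustment over all genes, and 0 of all genes did (0.0%). DESeq2 called 6 of all genes at the same threshold and limma-voom 0, none of them a member. At an unadjusted p under 0.05 there were 3 members, all lower (Mlycd, Acot2 and Cpt2), where 660 of all tested genes (4.68%) met that limit, 331 (2.34%) lower and 329 (2.33%) higher. A log2 fold change below 0 was found in 53.7% of all genes. In 14 of the 32 members each of the 6 myriocin values was under the DMSO mean, against 11.8% of all genes. The groups did not overlap in CPM for 2 members, Cpt2 and Mlycd, both lower, where 0.602% of all genes did not overlap, 0.538% being lower and 0.0638% higher. With TMM-scaled CPM this held for Cpt2 alone, and the share of all genes in either direction was 0.361%. Without scaling of the libraries 10 members lay under an unadjusted p of 0.05, where 791 of all genes did (5.60%), 646 of them lower, and the median over all genes was -0.05. The count was 9 without DMSO replicate 4 (4.95% of all genes), 8 without Myriocin replicate 4 (10.3%) and 6 without Myriocin replicate 1 (4.95%). Leaving out DMSO replicate 5 gave 2 members (4.21% of all genes), and leaving out Myriocin replicate 3 also gave 2 (3.51%). Without the 3 libraries with liver transcripts it was 7 (7.12% of all genes), and without the 3 farthest out 8 (7.97%).

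**Figure D2:**
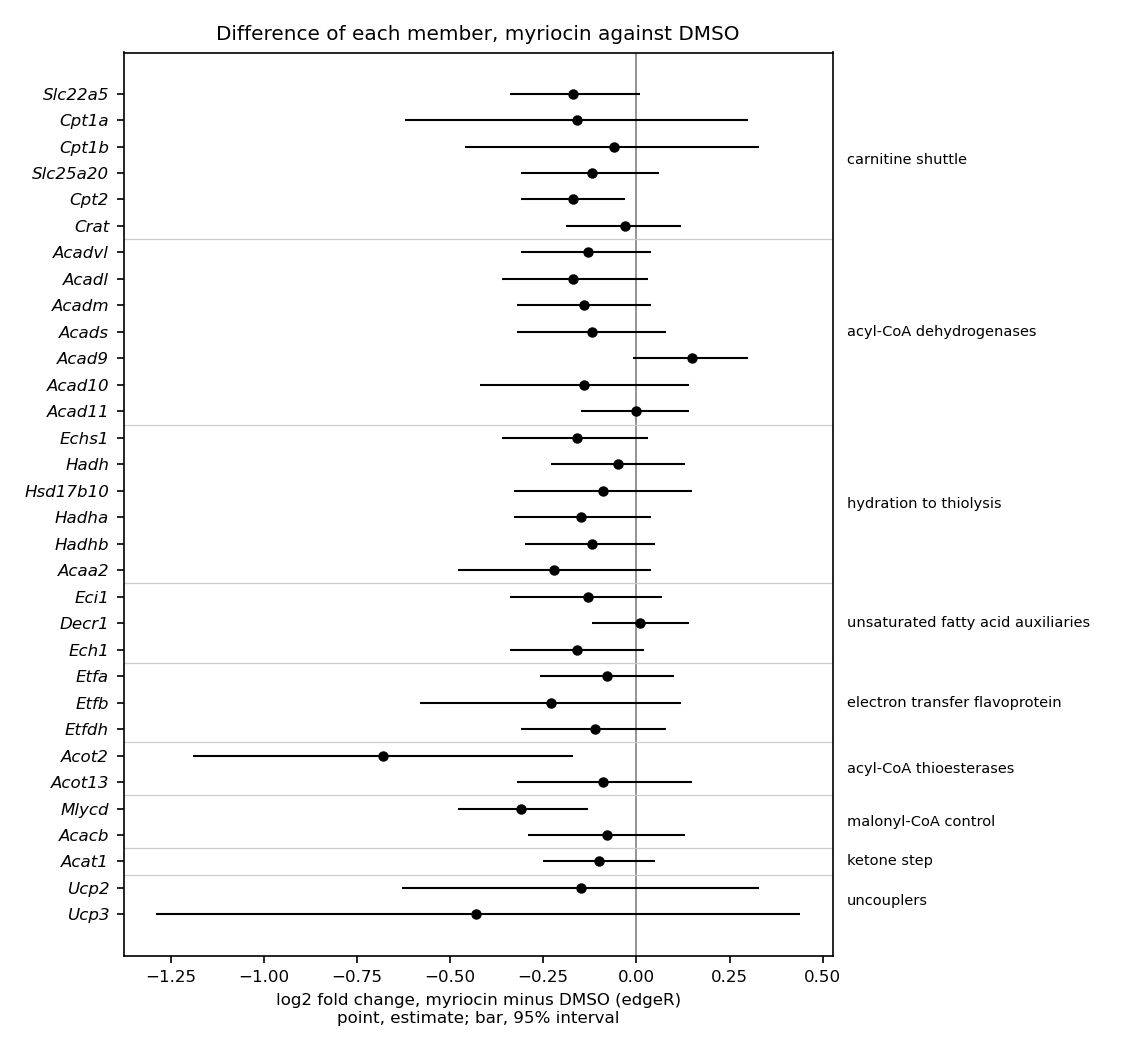
Log2 fold change of each member (myriocin over DMSO) from edgeR as a point with its 95% confidence interval, grouped by step of the pathway, with a line at 0 for no difference. Points lie to the left of 0 for 30 of 32 members, and the interval lies wholly to the left of 0 for Mlycd, Acot2 and Cpt2.

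In the carnitine shuttle all 6 genes were lower, by a median log2 fold change of -0.14. Cpt2, which remakes acyl-CoA on the matrix side (chr4:107903981-107923610, minus strand), read 72.2, 71.0, 67.5, 68.0 and 73.9 CPM in DMSO replicates 1 to 5. In the 6 myriocin libraries it lay between 54.4 and 66.1 CPM with a median of 61.8. Every myriocin library was below every DMSO library, the lowest being Myriocin replicate 3. The means were 70.5 ± 2.72 CPM (SD, n = 5) and 61.3 ± 3.97 CPM (SD, n = 6), a log2 fold change of -0.17 with a 95% interval from -0.31 to -0.03 (edgeR, adjusted p = 0.936). Cpt2 was no longer under an unadjusted p of 0.05 without DMSO replicate 5, without Myriocin replicate 3 or without the 3 libraries with liver transcripts.

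Slc22a5, the carnitine importer of the plasma membrane, read 11.4, 12.9, 12.9, 12.3 and 12.3 CPM with DMSO and 9.0 to 11.8 CPM with myriocin (median 11.1). Its 6 myriocin libraries were all below the DMSO mean and 4 were below the lowest DMSO library, with a log2 fold change of -0.17 (interval -0.34 to 0.01). Slc25a20, the carnitine-acylcarnitine carrier, differed by -0.12 and Cpt1a by -0.16 on the log2 scale. For Cpt1a, Myriocin replicate 4 at 7.29 CPM lay far below the other 5 myriocin libraries (15.6 to 19.97 CPM), and without it the log2 fold change was -0.01. Crat, which moves acetyl units onto carnitine, had the highest level per kilobase of the shuttle. It read 559, 464, 518, 509 and 482 CPM with DMSO and 459.7 to 525 CPM with myriocin (median 479), and the groups overlapped, at a log2 fold change of -0.03 ± 0.07 (SE). Cpt1b, whose count is uncertain for the overlap given above, differed by -0.06 and turned to 0.05 without DMSO replicate 1.

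Acyl-CoA dehydrogenases, which start each turn of the cycle on chains of a given length, were lower in 6 of 7 genes (median -0.13), and none reached an unadjusted p of 0.05. Acadm, for medium chains, read 316, 279, 296, 239 and 285 CPM with DMSO and 218 to 272 CPM with myriocin (median 256). All 6 myriocin libraries were below the DMSO mean, yet DMSO replicate 4 was lower than 4 of them, and the log2 fold change was -0.14 (interval -0.32 to 0.04). Acadl for long chains differed by -0.17, Acadvl for very long chains by -0.13 and Acads for short chains by -0.12. Each of these intervals included 0.

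Acad9 was the member with the largest difference in the other direction. Its product resembles the very-long-chain dehydrogenase and also serves in the assembly of complex I. It read 23.8, 20.8, 25.9, 23.5 and 19.4 CPM with DMSO and 24.0 to 25.3 CPM with myriocin (median 24.4). All 6 myriocin libraries were above the DMSO mean, close together and inside the range of the DMSO libraries. The log2 fold change was 0.15 (interval -0.01 to 0.30), and 0.03 without the 3 libraries farthest out. Acad10 and Acad11, dehydrogenases of uncommon acyl-CoA substrates, differed by -0.14 and -0.00, and Acad11 changed sign under several settings.

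From hydration to thiolysis all 6 genes were lower, by a median of -0.14 on the log2 scale. Acaa2, the soluble thiolase that releases acetyl-CoA, read 167, 150.3, 157, 129 and 187 CPM with DMSO and 99.8 to 152 CPM with myriocin (median 140.3). Its 6 myriocin libraries were below the DMSO mean, with Myriocin replicate 3 the lowest, but DMSO replicate 4 lay below 4 of them. The log2 fold change of -0.22 had an interval from -0.48 to 0.04. Echs1, the short-chain enoyl-CoA hydratase, differed by -0.16, Hsd17b10, a short-chain dehydrogenase of branched and short substrates, by -0.09, and Hadh, the short-chain hydroxyacyl-CoA dehydrogenase, by -0.05.

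The subunits of the trifunctional protein kept nearly the same ratio from library to library. Hadhb, the thiolase subunit, read 309, 251, 293, 244 and 253 CPM with DMSO and 216 to 267 CPM with myriocin (median 239), with a log2 fold change of -0.12. Hadha, which carries the hydratase and dehydrogenase, read 558, 445, 513, 418 and 478 CPM with DMSO and 377 to 460.0 CPM with myriocin, with a log2 fold change of -0.15. Their ratio of CPM stayed between 1.71 and 1.89 in the DMSO libraries and between 1.63 and 1.86 in the myriocin libraries. Over the same libraries the highest Hadha value was 1.48 times the lowest. These are the genes that share the stretch between divergent starts printed above. In the DMSO libraries a steady ratio was not particular to this pair. Acadl over Acadm, on chromosomes 1 and 3, ran from 0.877 to 0.961 there, though from 0.807 to 1.085 in the myriocin libraries. Whether the shared stretch has a part in the ratio was not tested.

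Among the enzymes for double bonds, Ech1 read 206, 192, 197, 162 and 197 CPM with DMSO and 146 to 186 CPM with myriocin (median 168). All 6 myriocin libraries were below the DMSO mean, while DMSO replicate 4 lay within the myriocin range, and the log2 fold change was -0.16 (interval -0.34 to 0.02). Eci1, the enoyl-CoA isomerase, differed by -0.13. Decr1, the dienoyl-CoA reductase, was level, with 93.6 to 113 CPM under DMSO, 95.2 to 109 CPM under myriocin and a log2 fold change of 0.01 (interval -0.12 to 0.14). It was -0.03 without scaling of the libraries and -0.02 without DMSO replicate 4.

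The electron transfer flavoprotein and its dehydrogenase, which hand the electrons to ubiquinone, were lower in 3 of 3 genes. Etfa read 205, 208, 193, 169 and 221 CPM with DMSO and 158 to 197 CPM with myriocin (median 189), a log2 fold change of -0.08. Etfb, whose count is uncertain for the overlap given above, read 11.9, 12.3, 10.98, 7.84 and 13.98 CPM with DMSO and 7.44 to 13.0 CPM with myriocin (median 9.23), and its log2 fold change was -0.23 (interval -0.58 to 0.12). It ran from -0.36 without Myriocin replicate 4 to -0.13 without DMSO replicate 5, and was -0.37 without the 3 libraries with liver transcripts. Etfdh differed by -0.11. Acat1, the mitochondrial acetoacetyl-CoA thiolase of ketone body use, read 228, 222, 225, 181 and 214 CPM with DMSO and 178 to 204 CPM with myriocin (median 196). Its 6 myriocin libraries were below the DMSO mean, and 1 was below DMSO replicate 4, at a log2 fold change of -0.10 (interval -0.25 to 0.05).

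Mlycd, malonyl-CoA decarboxylase (chr8:119394878-119411102, plus strand), had the smallest p of all members. It removes malonyl-CoA and so relieves CPT1 of its inhibitor. It read 137, 124, 132, 125 and 148 CPM in DMSO replicates 1 to 5, and 92.6 to 114 CPM with myriocin (median 106). No myriocin library reached the lowest DMSO library. The means were 133 ± 9.89 CPM (SD, n = 5) and 105 ± 9.35 CPM (SD, n = 6), with a log2 fold change of -0.31 (interval -0.48 to -0.13, edgeR, adjusted p = 0.936). Leaving out each library in turn gave log2 fold changes from -0.35 to -0.25, and Mlycd stayed under an unadjusted p of 0.05 in each of these fits and under each other setting run.

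Acacb, the mitochondrial acetyl-CoA carboxylase that makes malonyl-CoA, read 533, 413, 466, 485 and 353 CPM with DMSO and 378 to 460.2 CPM with myriocin (median 419). The myriocin libraries all lay inside the DMSO range, and the log2 fold change was -0.08 (interval -0.29 to 0.13). The ratio of Mlycd to Acacb in CPM had a mean of 0.303 ± 0.0671 (SD) over the 5 DMSO libraries. Over the 6 myriocin libraries it was 0.254 ± 0.027 (SD). Those ratios overlapped, DMSO running from 0.257 to 0.418 and myriocin from 0.215 to 0.297. DMSO replicate 5 had both the highest Mlycd and the lowest Acacb.

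Acot2, the matrix thioesterase that frees long-chain acids from CoA (chr12:83987861-83993873, plus strand), had the largest log2 fold change of the 32. It read 39.6, 23.4, 42.7, 36.8 and 40.4 CPM with DMSO, and 13.4 to 32.9 CPM with myriocin (median 21.5). DMSO replicate 2 was the lowest DMSO library and lay within the myriocin range, while the other 4 were above each myriocin library. The means were 36.6 ± 7.67 CPM (SD, n = 5) and 22.4 ± 7.23 CPM (SD, n = 6), a log2 fold change of -0.68 (interval -1.19 to -0.17, edgeR, adjusted p = 0.936). Acot2 was no longer under an unadjusted p of 0.05 without the 3 libraries with liver transcripts, where its log2 fold change was -0.49. Acot13, the other thioesterase, read 53.6, 60.7, 58.8, 45.7 and 70.6 CPM with DMSO and 46.4 to 60.5 CPM with myriocin (median 51.8), and differed by -0.09.

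**Figure D3:**
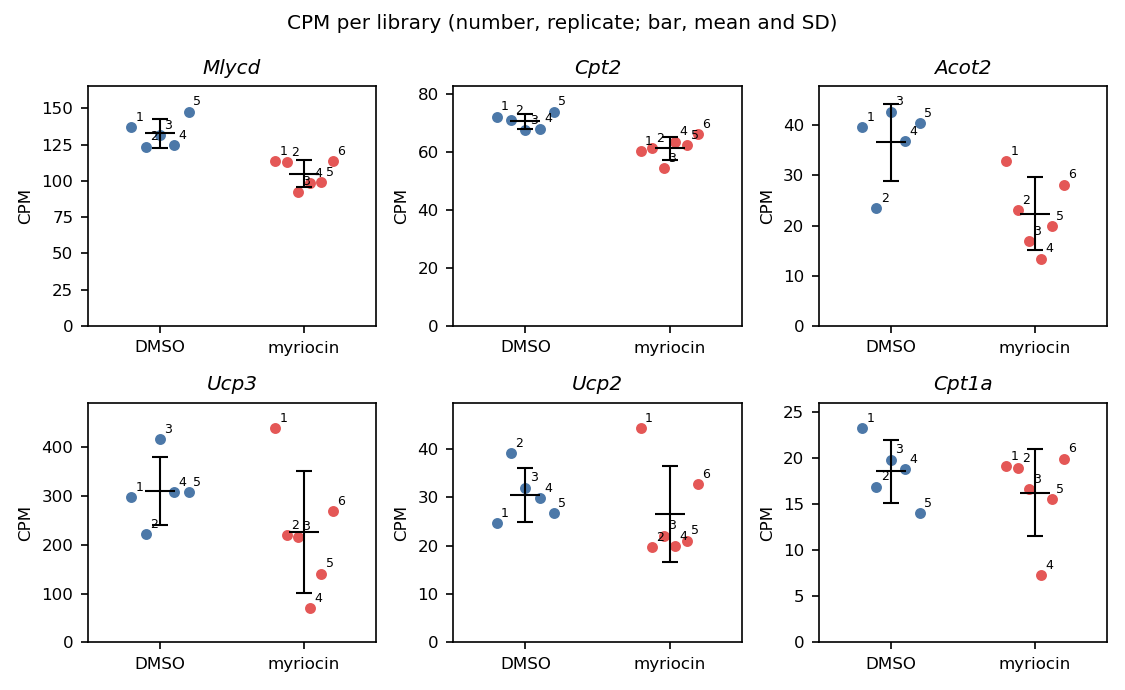
CPM per library of the members with the smallest p or the widest spread, DMSO (n = 5) beside myriocin (n = 6), with each library as a numbered point and the mean with its SD as bars. Cpt2 and Mlycd show no overlap between the groups, Acot2 overlaps through DMSO replicate 2, and Ucp3 runs from 70.2 to 439 CPM within the myriocin group.

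Uncoupling proteins had the largest coefficients of variation within groups of all members. Ucp3, the form of skeletal muscle (chr7:100472990-100486432, plus strand), read 297, 222, 417, 308 and 308 CPM with DMSO. In Myriocin replicates 1 to 6 it read 439, 219.8, 217, 70.2, 141 and 269 CPM, so that the highest and the lowest of all 11 values were both in this group. The log2 fold change of -0.43 had an interval from -1.29 to 0.44. Ucp2, a relative found in many cell types, lies downstream on the same strand, with 20366 bases between the RefSeq starts. It read 24.7, 39.1, 32.0, 29.8 and 26.7 CPM with DMSO and 19.8 to 44.3 CPM with myriocin (median 21.6). For Ucp2, 4 myriocin libraries were below the lowest DMSO library and Myriocin replicate 1 was above the highest, with a log2 fold change of -0.15. Both values depended on single libraries. The log2 fold change of Ucp3 was -0.74 without Myriocin replicate 1, -0.24 without Myriocin replicate 4 and -0.23 without the 3 libraries with liver transcripts. That of Ucp2 was -0.36 without Myriocin replicate 1, -0.07 without DMSO replicate 2 and -0.02 without the 3 libraries farthest out. Each was under an unadjusted p of 0.05 without Myriocin replicate 1 and in no other fit that left out libraries.

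The spread within the groups, as a coefficient of variation, was 39.5% for Ucp3, 29.2% for Ucp2, 25.8% for Acot2 and 24.2% for Cpt1a. Of the genes within a factor of 2 of their level, 98.0%, 97.1%, 96.3% and 94.4% varied less. Cpt2 lay at the other end with 5.3%, where 10.0% of genes of like level varied less, and Crat (6.1%) and Decr1 (6.3%) were also narrow. The dehydrogenases ran from 7.4% (Acad9) to 15.9% (Acad10), and the genes from hydration to thiolysis from 8.5% (Hadh) to 14.5% (Hsd17b10).

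Libraries of a group differed from each other across many members. The 32 members together held 4331 to 5140 CPM in the DMSO libraries and 3784 to 4599 CPM in the myriocin libraries, so the summed levels overlapped. As the median log2 ratio of the members to their DMSO mean, DMSO replicates 1 to 5 stood at 0.09, 0.01, 0.06, -0.16 and 0.01, and Myriocin replicates 1 to 6 at -0.11, -0.21, -0.36, -0.10, -0.11 and -0.10. Myriocin replicate 3 was the lowest of 11 libraries for 17 of the 32 members and DMSO replicate 1 the highest for 15. DMSO replicate 4 stood below 4 of the 6 myriocin libraries. The median log2 fold change of the members was -0.10 without Myriocin replicate 3 and -0.16 without DMSO replicate 4.

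**Figure D4:**
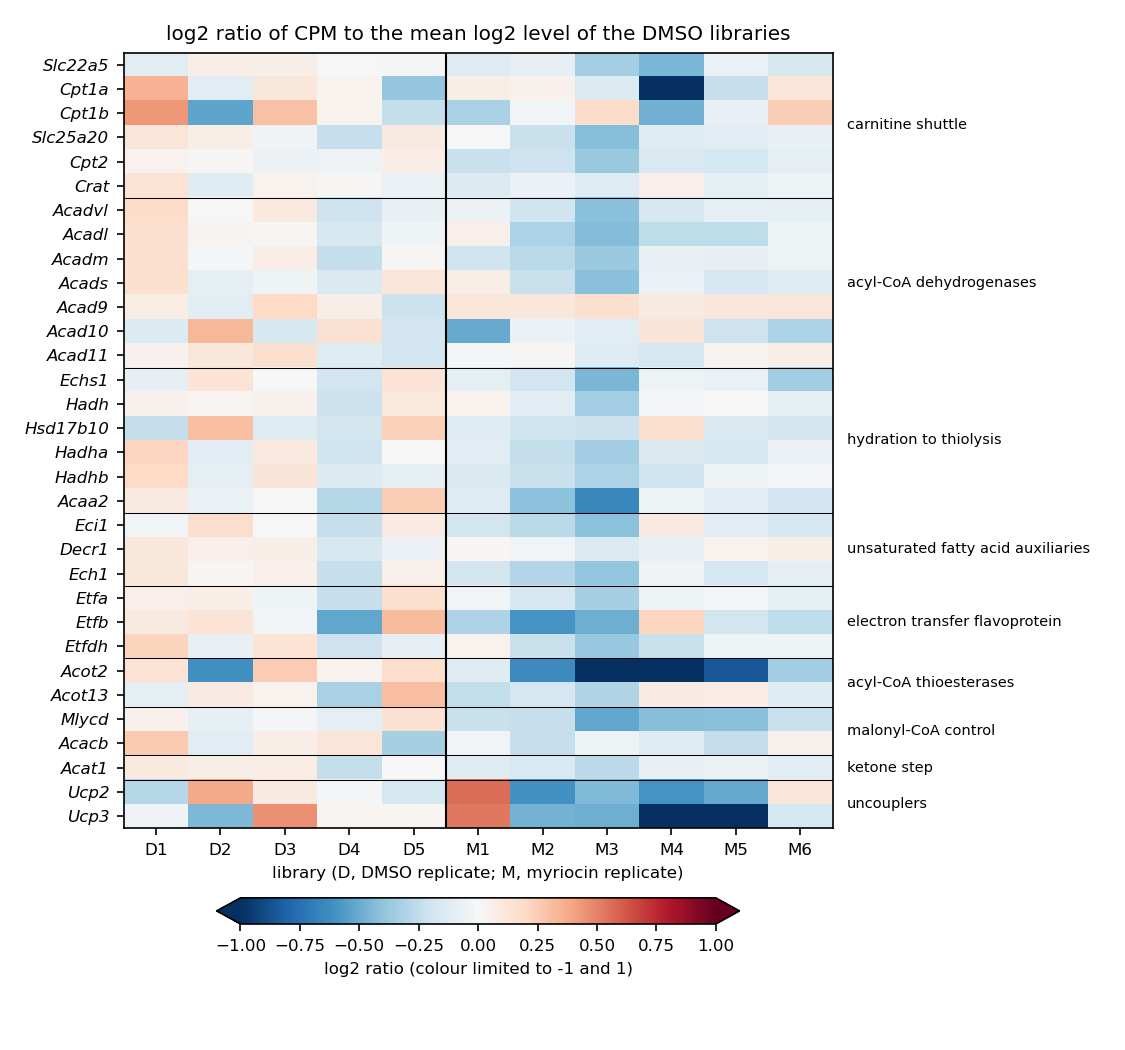
Log2 ratio of each member to its DMSO mean in each of the 11 libraries as a colour map, members in the order of the pathway. Myriocin replicate 3 is low across most rows (median -0.36), DMSO replicate 4 is the DMSO library below the others (median -0.16), and Ucp3 and Ucp2 depart from the other rows in Myriocin replicate 1.

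In each group the library lowest in members was also the lowest in genes of slow and oxidative fibres. This list of 11 genes summed to 2745 to 4978 CPM with DMSO, DMSO replicate 4 being the lowest, and to 1340 to 4367 CPM with myriocin, Myriocin replicate 3 being the lowest. It was lower with myriocin in 9 of 11 genes, with a median log2 fold change of -0.12 and 0 genes under an unadjusted p of 0.05. That median turned to 0.19 without DMSO replicate 2, 0.02 without Myriocin replicate 3 and 0.10 without the 3 libraries farthest out. In the other direction it was -0.63 without Myriocin replicate 5. Myh2, the myosin of fast oxidative fibres, read 364 CPM in Myriocin replicate 3 and 950.1 to 1894 CPM in the other myriocin libraries, against 1159 to 2162 CPM with DMSO. Fast glycolytic fibre genes went the other way: 8 of 11 were higher, with a median of 0.17, and 3 (Myh4, Myl1 and Casq1) lay under an unadjusted p of 0.05, Myh4 and Myl1 no longer without DMSO replicate 2, among others. The part of fibre makeup in the lower member values was not tested.

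Ucp3 shared its highest and lowest library in each group with Pdk4, which is no member. Pdk4, the kinase that shuts pyruvate dehydrogenase and a target of the same nuclear receptors, read 1385, 1071, 2058, 1641 and 1660 CPM in the DMSO libraries. It read 2010, 958, 1129, 214, 706 and 1836 CPM in Myriocin replicates 1 to 6. Both genes were highest of the myriocin group in replicate 1 and lowest in replicate 4, and both were highest of the DMSO group in replicate 3 and lowest in replicate 2. The log2 fold change of Pdk4 was -0.43 (interval -1.48 to 0.63), -0.21 without Myriocin replicate 4 and -0.13 without the 3 libraries with liver transcripts. Acot2 shared the lowest place in each group, DMSO replicate 2 and Myriocin replicate 4, and Cpt1a shared that of the myriocin group. Over all 32 members the median ratio in Myriocin replicate 4 was -0.10.

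**Figure D5:**
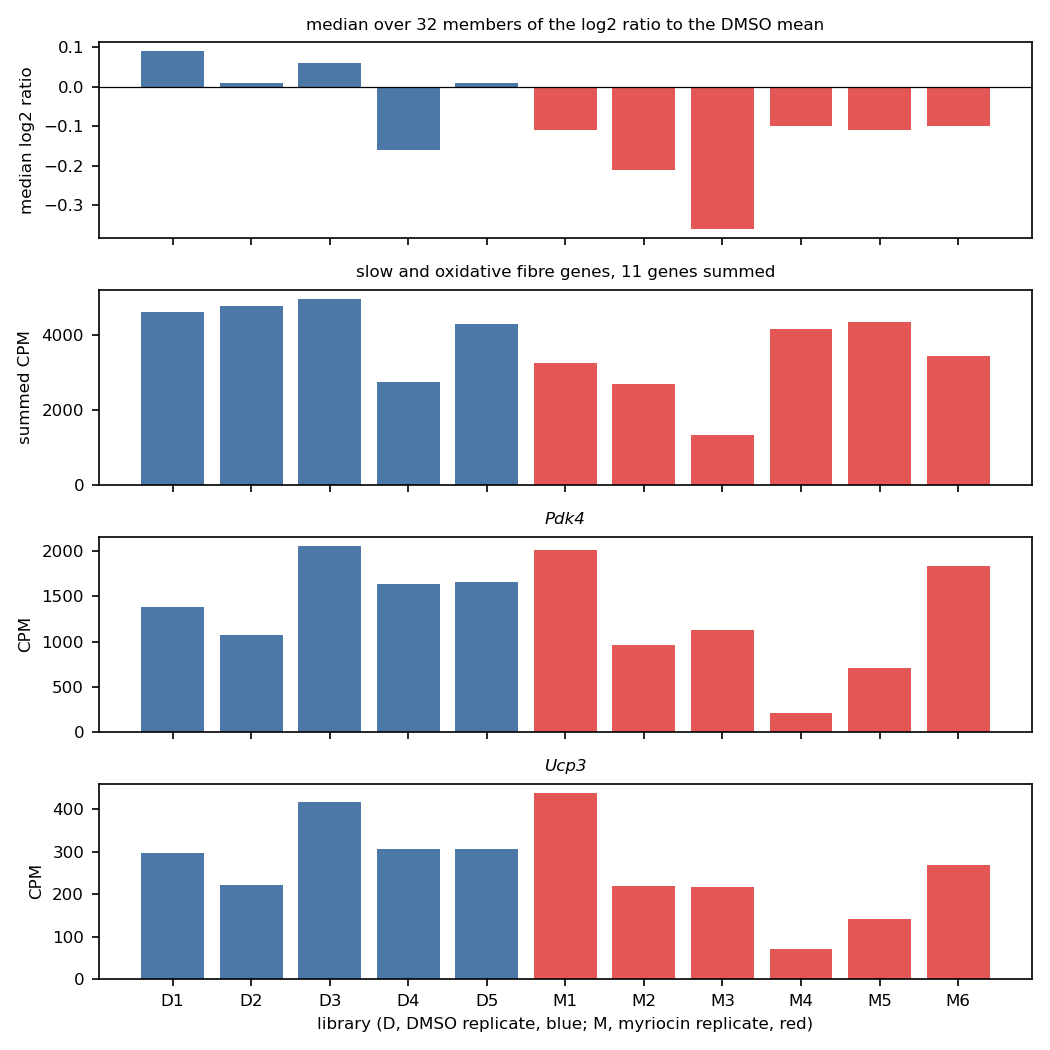
From top to bottom, the median log2 ratio of the 32 members to their DMSO mean, the summed CPM of 11 slow and oxidative fibre genes, and the CPM of Pdk4 and Ucp3, each by library (D, DMSO, blue; M, myriocin, red). Myriocin replicate 3 is lowest in the upper panels (-0.36 and 1340 CPM), whereas Myriocin replicate 4 is lowest for Pdk4 (214 CPM) and Ucp3 (70.2 CPM).

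Other genes of fatty acid oxidation, a list of 34 with 33 tested, were lower in 27, with a median log2 fold change of -0.08. Of these, 4 lay under an unadjusted p of 0.05, all lower: Acot1, Fabp3, Acad12 and Acsl1. Acot1, the cytosolic relative of Acot2, had means of 2.57 ± 0.351 CPM (SD, n = 5) and 1.39 ± 0.594 CPM (SD, n = 6), a log2 fold change of -0.85 ± 0.23 (SE, edgeR, adjusted p = 0.936). Fabp3, the fatty acid binding protein of muscle cytosol, differed by -0.46, and by -0.36 without DMSO replicate 5, where it no longer lay under that p. Acad12 lost it without any of several libraries, and Acot1 kept it in each fit that left out libraries. All 6 genes of ketone body use and synthesis were lower, with a median log2 fold change of -0.13.

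A list drawn up as PPAR targets outside oxidation, mostly genes of lipid handling but also Pdk4, Txnip and Klf15, was lower in 9 of 11 tested. The median was -0.28, and 3 genes lay under an unadjusted p of 0.05, all lower. They were Lpl, lipoprotein lipase (-0.59), Slc27a1, a fatty acid transporter (-0.25), and Plin2, a lipid droplet coat protein (-0.28). Plin2 stood at 64.5 CPM in DMSO replicate 2 against 34.9 to 39.8 CPM in the other DMSO libraries, and its log2 fold change was -0.10 without that library and -0.05 without the 3 libraries farthest out. Lpl stayed under an unadjusted p of 0.05 whichever single library was left out, whereas Slc27a1 and Plin2 each lost it without any of several libraries. Of 27 genes of the regulators themselves 16 were lower, with a median of -0.02, or 0.01 without either DMSO replicate 3 or Myriocin replicate 4. Ppara differed by -0.07, Ppard by -0.09, Esrra by -0.13 and Ppargc1a by -0.04, while Ppara and Ppargc1a turned to 0.04 and 0.11 without DMSO replicate 3 and were both 0.04 without Myriocin replicate 4. Esrrb was the regulator under an unadjusted p of 0.05, at -0.48, and was no longer so without any of several single libraries.

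Peroxisomal oxidation, which shortens very long chains before they reach mitochondria, was lower in 12 of 16 tested genes with a median of -0.05. Ehhadh, which acts in the peroxisomal cycle, had a log2 fold change of -0.36 and Crot, which makes carnitine esters there, one of 0.17, both under an unadjusted p of 0.05. Of the enzymes that take up acetyl-CoA and electrons from the cycle, the citric acid cycle was lower in 11 of 18 genes (median -0.02, or 0.03 without DMSO replicate 5) and the nuclear core of complex I in 6 of 7 (median -0.07, or 0.02 without DMSO replicate 5 and -0.13 without Myriocin replicate 4), with 0 genes under an unadjusted p of 0.05 in either list. Glycolytic enzymes were higher in 11 of 12 genes with a median of 0.13, none under an unadjusted p of 0.05. Ldhb, the lactate dehydrogenase form of oxidative tissue, was the one that was lower (-0.51).

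Other cell types in the muscle piece were read from marker lists. Markers of adipocytes, cells that handle fatty acids too, were lower in 8 of 9 tested (median -0.41), summing to 324 to 2069 CPM with DMSO and 309 to 734 CPM with myriocin. DMSO replicate 2 was the highest, and without it their median was 0.42. Without Myriocin replicate 4 the median of the adipocyte markers was -0.74. Endothelial markers were lower in 10 of 10 genes (median -0.15), with sums of 385 to 425 CPM and 299 to 410.0 CPM. Liver markers were lower in 9 of 9 tested (median -0.57, or -0.03 without DMSO replicate 5 and -2.11 without Myriocin replicate 4), with sums of 9.24 to 133 CPM and 9.24 to 143 CPM. Macrophage markers were lower in 8 of 10 (median -0.04) and fibroblast markers in 1 of 7 (median 0.10), and the neutrophil list of 8 genes had 2 tested, S100a8 and S100a9, the list summing to 0.405 to 672 CPM with DMSO and 0.615 to 93.8 CPM with myriocin. No marker of these lists was at 0 in all libraries, and 2 liver markers and 1 neutrophil marker had means under 1 CPM. The part of these cells in the member values was not tested. The median of the members was -0.15 without DMSO replicate 2 and -0.16 without the 3 libraries with liver transcripts.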

How the data were processed

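RNA of 11 quadriceps libraries (5 DMSO, 6 myriocin) was isolated with Direct-zol and sequenced by DNBseq, per the labels. A single table of raw counts was deposited, for which the submitters' processing notes name STAR 2.5.2b, HTSeq 0.6.0 and the build GRCm38. The 5 summary lines, 24.8% to 28.2% of a library's reads, stayed out. Columns were assigned by name, with 0 left over. Symbols, positions and lengths came from GENCODE M21, and start-site windows from RefSeq on GRCm38.p6.

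Genes were filtered with filterByExpr (minimum count 10, minimum total 15), scaled by TMM and tested with edgeR 4.0.16 (robust quasi-likelihood F test, treatment as single factor, R 4.3.3). Benjamini-Hochberg adjustment ran over 14117 genes, with a threshold of 0.05. SE is the absolute log2 fold change over the square root of F. CPM used gene totals without TMM. The fit was tested on simulated data.

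The members and lists were chosen with earlier results of these data known. All members are named, with values in every library or by range for the member with the smallest p and the highest level per kilobase in each step and those at unadjusted p under 0.05. From each list the 3 genes with the smallest p (2 for markers), and a few regulators and markers, could be named, of which 2 are not reported here. Acsl1 and Casq1, and the per-library levels of Hadha and Decr1, were picked with their values in view. Alternatives were DESeq2 1.42.0 and its size factors, limma-voom (limma 3.58.1), upper-quartile or no scaling, no filter, 10 counts in 9 libraries, leaving out mitochondrial and the 20 most abundant genes, 1 surrogate variable (sva 3.50.0), a replicate block and each library left out. Leaving out 3 libraries at once was chosen after seeing the data. Counts of 2 libraries of a group were never alike within sampling noise (chi-square per degree of freedom 8.18 to 44.2). Intervals cover counting error and library spread, and reads without molecular identifiers may include PCR copies.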

Additional observations from a re-analysis of the deposited data

Results flagged for a closer look

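A library stood apart from the rest of its group in 4 of the 64 combinations of a member and a group examined by Dixon's criterion, a gap to the nearest library of at least 0.625 of the range for 6 libraries or 0.71 for 5. Chance gives about 1 in 20. Cpt1a, the form of CPT1 that prevails in liver, read 7.29 CPM in Myriocin replicate 4 against 15.6 to 19.97 CPM in the other 5. In the same library Hsd17b10 was the highest, at 49.9 CPM against 38.6 to 41.1 CPM. Acad9 read 25.3 CPM in Myriocin replicate 3 against 24.0 to 24.5 CPM, a small gap in a narrow group. Hadh read 123 CPM in DMSO replicate 4 against 144 to 153 CPM in the other 4.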

How the results depend on the processing

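The number of lower members was 29 to 31 of 32 under the other settings and 27 to 31 when each library was left out, with a median log2 fold change of -0.17 to -0.13 and of -0.16 to -0.10. No setting called a member. All genes past the adjusted threshold numbered 6 with DESeq2, 1 with a surrogate variable and 0 when any library was left out (0 to 0, members too). Genes at unadjusted p under 0.05 were 1167 without a filter, 1140 without the 3 libraries farthest out, 1022 without those with liver transcripts, and 493 (without Myriocin replicate 3) to 1449 (without Myriocin replicate 4) when each was left out. Members at that p were 10 without scaling, 8 and 7 without those libraries, and 2 to 9 leaving out one. Members without overlap were 1 by TMM-scaled CPM. Replicate numbers did not pair the libraries (correlation of deviations -0.0035, -0.13, 0.0748, 0.0866 and -0.10). With the replicate block over 10 libraries 4 members and 509 genes were at unadjusted p under 0.05, and the median was -0.14. Of 384 member values 5 changed sign: Acad11 (0.002 without filter, 0.0004 without abundant genes), Decr1 (-0.03 without scaling and without liver libraries) and Hsd17b10 (0.03 without the farthest out). Of 352 leaving out a library 11 did, with ranges of -0.19 to 0.05 (Cpt1b), -0.08 to 0.002 (Crat), -0.04 to 0.04 (Acad11), -0.02 to 0.04 (Decr1) and -0.16 to 0.01 (Acot13). Of the other named genes, Ppara ran from -0.17 to 0.04, Ppargc1a from -0.17 to 0.11, Cidea from -2.30 to 0.75, Cfd from -1.07 to 0.10, Adipoq from -0.59 to 0.42, S100a8 from -3.31 to 1.64 and S100a9 from -3.34 to 1.57. Adipoq, S100a8 and S100a9 were 0.12, 0.65 and 0.51 with a surrogate variable, 0.06, 0.18 and 0.31 with the block and 0.09, 0.82 and 0.75 without the farthest out, where Cidea was 0.11, Lyz2 0.20 and C1qa 0.07. Fga was 0.28 without liver libraries. The cause was not tested. At 5 and 6 libraries the 95% interval of a member spans a log2 difference like the ones seen, so most of these differences were not detectable, which does not show that levels were alike.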
